A study of Mus musculus with 11 samples.

Results

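Recombinant human acyloxyacyl hydrolase (AOAH) was compared with vehicle in activated mouse CD8+ T cells. Every gene whose mean over the 8 libraries reached 1 TPM was taken, which gave 11561 of the 25562 genes in the expression table. TPM is a share of a library's transcripts corrected for transcript length, so levels of different genes can be set side by side on it. The 4 AOAH libraries carry the labels ethanol control and then AOAH-His, a protein with a histidine tag, at 10 µg/mL. The 4 vehicle libraries carry ethanol control and then protein buffer, a phosphate-buffered saline with 10% glycerol. In both groups the cells were taken by kit from spleens of C57BL/6 mice, and given 22 h of pretreatment and 24 h of activation through CD3 (antibody at 1 µg/mL) and CD28 (antibody at 0.5 µg/mL). Sources used here give neither the age nor the sex of the mice. The protocol puts AOAH in the pretreatment and the sample descriptions put it in the activation step, and no glycerol share is given for the AOAH libraries, so enzyme and buffer cannot be told apart. The descriptions and the protocol also differ on beads or plate-bound antibody, and interleukin-2 is given as present or absent. Whether the 4 libraries of a group come from different mice or cultures is not said, so a p-value here reflects the spread among these libraries alone, and that spread may be technical.

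AOAH is a lipase of phagocytes that is best known for removing secondary fatty acyl chains from bacterial lipopolysaccharide, and it also acts on phospholipids and lysophospholipids. Activation of a CD8+ T cell starts growth: the cell enlarges, makes ribosomes and mitochondria, imports amino acids and divides, and it switches off receptors and factors that keep a resting cell circulating. Lysophospholipids, sphingosine phosphate and other lipids act on T cells through G protein-coupled receptors at their surface. The cell cycle, interferon and glycolysis genes of this comparison were passed over here in favour of other functions.

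Between 11423 and 11497 genes were at 1 TPM or more in the AOAH libraries and between 11569 and 11633 in the vehicle libraries, and the depth of the libraries is unknown because TPM keeps none. The cells carried the markers of CD8+ T cells. The 11 genes of a CD8 T cell marker list summed to 2924 to 2970 TPM with AOAH and to 3166 to 3192 TPM with vehicle, so the groups did not overlap. Of these 11 genes 8 were lower with AOAH, among them Cd8b1 (log2 change -0.27) and Cd3d (-0.24). The 1 gene that was higher was Cd5 (0.32), a brake on T cell receptor signals. Over all genes tested 12.1% were lower and 13.1% higher. Fewer cells of a type and less RNA per cell cannot be told apart in bulk RNA. Few genes of the lists for other cells reached the level to be tested. They were 1 of 10 for B cells, 2 of 12 for myeloid cells, 1 of 7 for dendritic cells and 4 of 6 for helper and regulatory T cells, and none was called. None of the 8 genes for red cells and platelets was tested. The summed levels of these lists were at most 19.2 TPM in any library, and Clec9a and Siglech of dendritic cells and the globin Hba-a1 stood at 0 in all 8 libraries. A list for natural killer cells had 2 genes lower of 2 tested, Eomes (-0.22), which activated CD8 cells also express, and Gzma (-0.72), and summed to 82.2 to 89.7 TPM with AOAH and to 99.4 to 105 TPM with vehicle. The part of these marker shifts in the results that follow was not tested.

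With AOAH the rises were mostly small and most frequent among abundant genes, and the falls were larger and spread over all levels of abundance. Limma called 1514 genes higher (13.1% of those tested) and 1399 lower (12.1%) at a Benjamini-Hochberg adjusted p under 0.05, together 25.2%. Changes are given as differences of log2(TPM + 1), which understate the change of low genes. The median called rise was 0.19 and the median called fall -0.36. Of the called genes 6 rose and 71 fell at least 2-fold in TPM + 1. That count leaves out some genes that changed 2-fold in TPM. Rises stood at a median of 63.6 TPM, falls at 17.6 TPM and genes not called at 15.0 TPM. When genes were ranked by mean TPM and cut into 4 equal parts, 3.11% of the lowest part rose and 11.4% fell, and 29.97% of the highest part rose and 11.5% fell. In the 2 parts between them 13.4% and 12.15% fell, so the share of falls did not follow abundance. Values of the 4 AOAH libraries lay all above those of the 4 vehicle libraries for 15.1% of genes and all below for 13.7%. Outside the sets passed over, 1232 of 9431 genes rose (13.1%) and 1056 fell (11.2%).

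**Figure D1:**
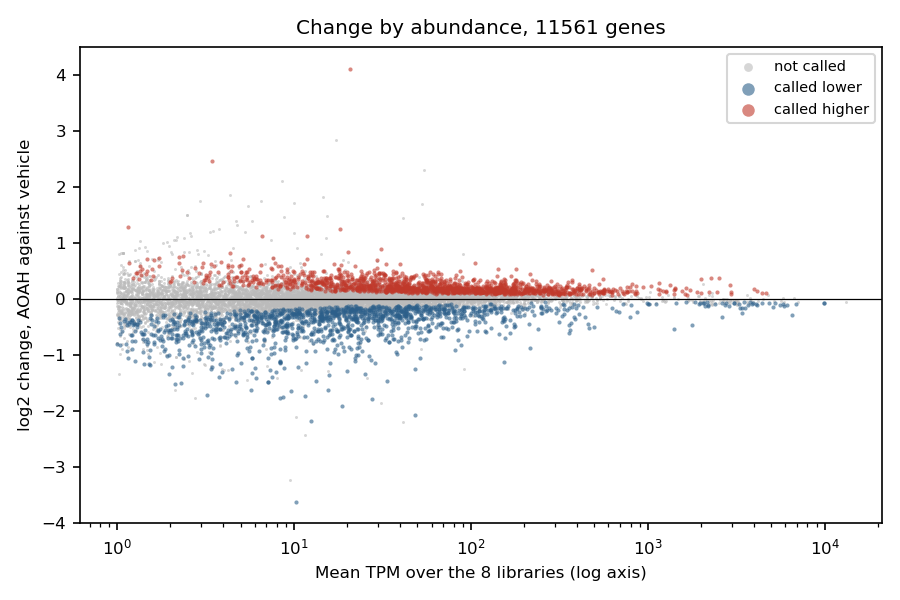
Log2 change of each of the 11561 genes (AOAH against vehicle, 4 libraries each, vertical axis) against its mean TPM over the 8 libraries (log axis), with called genes in colour. Called rises (red) gather at the abundant end close to the zero line, with a median of 0.19, while called falls (blue) reach further down, with a median of -0.36.

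Cell cycle, histone, interferon, MHC and glycolysis genes, genes with no symbol of their own and genes whose change was already known were among the sets passed over in naming the largest changes. Some of those genes moved further, among them Klf2 (-1.79), Slc28a2b (-1.74), Slc16a3 (1.24) and Slc16a10 (0.84), as log2 changes. Among the other genes that reached 5 TPM in their higher group, large falls included genes of migration and lipid antigen display. Cxcr4, the receptor for the chemokine CXCL12, stood at 3.34, 2.52, 4.46 and 2.89 TPM with AOAH against 9.6, 11.9, 9.99 and 12.3 TPM with vehicle (log2 change -1.49 ± 0.14, adjusted p = 1.44e-04). The lowest vehicle library was above the highest AOAH library by a wide margin. Ccr9, the receptor that sends T cells to the small intestine, stood at 2.03, 2.08, 2.16 and 1.71 TPM with AOAH against 5.3, 5.55, 5.32 and 6.61 TPM with vehicle (log2 change -1.16 ± 0.09, adjusted p = 5.56e-05). Rapgef4, which encodes EPAC2, a cyclic AMP sensor that switches on the small GTPase Rap, stood at 1.82, 1.77, 1.75 and 1.16 TPM with AOAH against 5.43, 6.65, 5.83 and 5.66 TPM with vehicle (log2 change -1.40 ± 0.11, adjusted p = 5.25e-05). Again the groups were well apart, and AOAH 4 was the lowest library. Cd1d1, which displays lipids to natural killer T cells, stood at 3.77, 2.65, 3.11 and 3.31 TPM with AOAH against 9.48, 8.26, 8.08 and 9.88 TPM with vehicle (log2 change -1.24 ± 0.10, adjusted p = 6.53e-05), and its close copy Cd1d2 makes its share of reads uncertain.

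Other large falls were in regulators of stress and growth. Ypel3, a gene that slows proliferation, stood at 18.96, 14.3, 19.3 and 16.7 TPM with AOAH against 45.6, 53.6, 46.3 and 53.7 TPM with vehicle (log2 change -1.48 ± 0.10, adjusted p = 2.74e-05). Its promoter is shown because the letters GTAAACA, a core site of FOXO factors, which are active in resting T cells, lie just past its start in the RefSeq window (build GRCm38.p6, chr7:126776977-126777006, plus strand, the site in capitals).
Ypel3: ctggtctcggtGTAAACAagtcgaggcggc
Tsc22d3, which encodes the glucocorticoid-induced leucine zipper, stood at 5.42, 3.56, 4.26 and 3.45 TPM with AOAH against 11.9, 11.6, 11.7 and 11.2 TPM with vehicle (log2 change -1.30 ± 0.11, adjusted p = 8.88e-05). Crebrf, a regulator of the unfolded protein response, stood at 2.35, 2.32, 2.05 and 1.95 TPM with AOAH against 7.61, 7.21, 8.55 and 3.73 TPM with vehicle (log2 change -1.25 ± 0.20, adjusted p = 0.00234). Its groups did not overlap, but vehicle 4 was lower than the other vehicle libraries. Slc6a19, a transporter of neutral amino acids best known from gut and kidney, stood at 2.73, 2.93, 3.13 and 2.61 TPM with AOAH against 7.96, 9.62, 9.7 and 10.1 TPM with vehicle (log2 change -1.42 ± 0.08, adjusted p = 1.91e-05). Phf1, a Polycomb partner protein that reads histone H3, fell by 1.27 and Tcp11l2 by 1.15 on the log2 scale. Tmem71 (-1.22) and Baiap3 (-1.21), the latter a protein of secretory vesicle traffic, completed the 12 largest falls outside the sets passed over, all as log2 changes.

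The largest rises outside the sets passed over were smaller. Tacc2, which binds microtubules at the centrosome, stood at 35.4, 36.1, 37.2 and 36.3 TPM with AOAH against 27.99, 17.4, 24.2 and 20.5 TPM with vehicle (log2 change 0.68 ± 0.12, adjusted p = 0.00393). The AOAH libraries were nearly equal and the vehicle libraries spread widely below them. Cd200, the ligand of an inhibitory receptor, stood at 111, 138, 131 and 132 TPM with AOAH against 91.7, 81.1, 73.8 and 82.9 TPM with vehicle (log2 change 0.63 ± 0.08, adjusted p = 7.87e-04). Lag3, an inhibitory receptor that binds class II molecules, stood at 39.9, 40.9, 41.04 and 40.04 TPM with AOAH against 27.4, 24.5, 28.9 and 23.7 TPM with vehicle (log2 change 0.62 ± 0.06, adjusted p = 1.90e-04). Marcksl1, an actin-binding substrate of protein kinase C, stood at 48.7, 48.2, 46.7 and 50.1 TPM with AOAH against 31.2, 29.9, 32.1 and 31.1 TPM with vehicle (log2 change 0.62 ± 0.04, adjusted p = 1.91e-05), with no overlap between the groups. Cd81, a tetraspanin that partners with costimulatory proteins, stood at 7.59, 7.26, 8.23 and 9.19 TPM with AOAH against 5.42, 5.0, 5.07 and 4.35 TPM with vehicle (log2 change 0.60 ± 0.09, adjusted p = 0.00131).

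Chromatin and RNA genes were also among the largest rises. Spin4 (0.59), of a family that reads histone marks, Smyd1 (0.58), a methyltransferase family member best known from muscle, and Adarb1 (0.53), an RNA-editing adenosine deaminase, rose on the log2 scale. Crip2 (0.60), a LIM domain protein, St3gal5 (0.56), the sialyltransferase that makes ganglioside GM3, and Dmwd (0.54) rose too. Parpbp, an inhibitor of homologous recombination, changed by 0.55 on the log2 scale (adjusted p = 0.0447) and stood at 8.98, 8.62, 8.81 and 9.34 TPM with AOAH against 6.46, 5.4, 8.3 and 3.82 TPM with vehicle. Blocking on batch ended the call (adjusted p = 0.0660), as did no filter (0.104) and leaving out any 1 of AOAH 1 (0.0868), AOAH 2 (0.0815), AOAH 3 (0.0842), AOAH 4 (0.0998), vehicle 1 (0.0609), vehicle 2 (0.105) or vehicle 4 (0.0569).

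**Figure D2:**
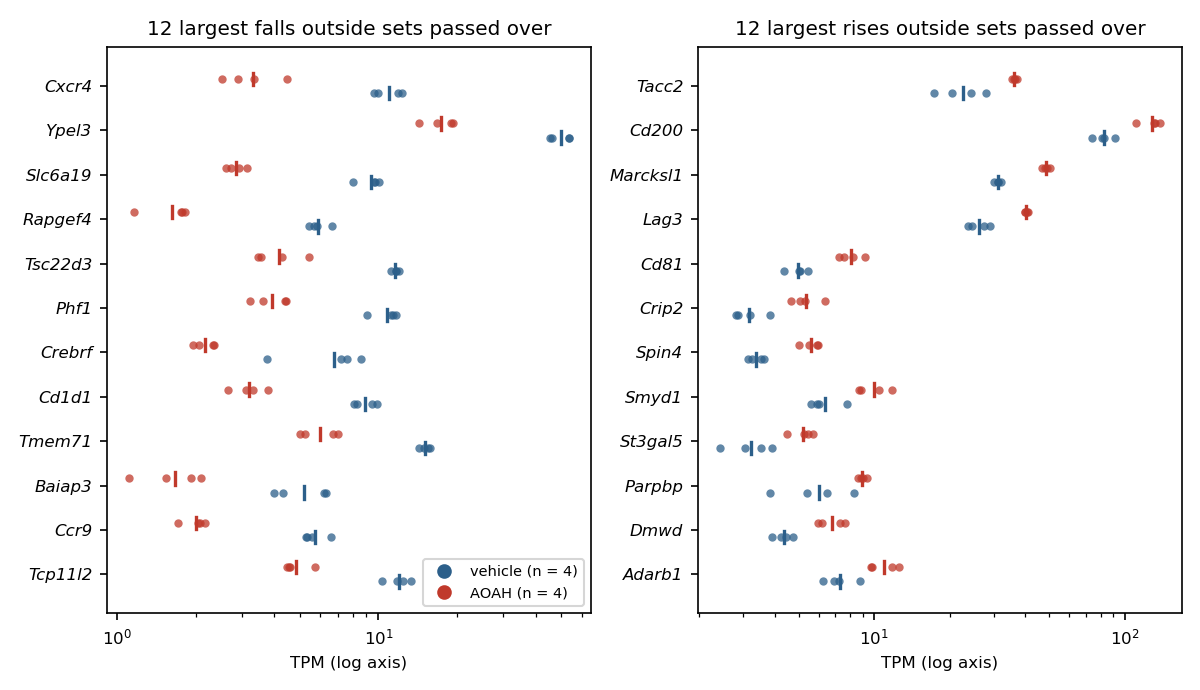
TPM (log axis) of the 12 largest falls (left) and 12 largest rises (right) outside the sets passed over, in each of the 4 AOAH libraries (red points) and 4 vehicle libraries (blue points), with group means as bars. The groups do not overlap for any of the 24 genes, which was a condition for naming them, and the falls are wider apart than the rises: Cxcr4 changed by -1.49 and Tacc2 by 0.68 on the log2 scale.

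Measured in TPM rather than in fold, the 5 largest gains outside the sets passed over were in Hspa8, Hsp90ab1, Ptma, Mif and Hnrnpab, and the 5 largest losses in Eef1a1, Rplp1, Rplp2, Tmsb4x and Tpt1. Hspa8, the constitutive HSC70 chaperone, stood at 4350.3 ± 142 TPM with AOAH against 3935 ± 55.4 TPM with vehicle (± SD over 4 libraries per group, n = 4, as for all means here) and Hsp90ab1, the main cytosolic HSP90, at 4591 ± 69.6 TPM with AOAH against 4267 ± 67.4 TPM with vehicle. Ptma, prothymosin alpha, stood at 4833 ± 52.1 TPM with AOAH against 4495 ± 26.5 TPM with vehicle, and Mif, a secreted cytokine and tautomerase, at 2584 ± 86.95 TPM with AOAH against 2374 ± 47.6 TPM with vehicle. These 4 rose by between 0.10 and 0.14 on the log2 scale. Among the losses, Tmsb4x, which holds actin monomers, stood at 3336 ± 95.6 TPM with AOAH against 3754 ± 29.4 TPM with vehicle, and Tpt1, a growth-related protein whose transcript is under translational control, at 3145 ± 40.2 TPM with AOAH against 3533 ± 57.1 TPM with vehicle. Eef1a1, the elongation factor that brings aminoacyl-tRNA to the ribosome, changed by -0.08 and the ribosomal stalk genes Rplp1 and Rplp2 by -0.08 and -0.10 on the log2 scale. Eef1a1 and Rplp1 lost the call under quantile normalization (adjusted p = 1 for each), which gives the topmost genes of every library the same values. Rplp2 lost it with batch as a block (0.0638), with no filter (0.0788), with trimmed mean rescaling (0.0735) and on leaving out AOAH 1 (0.0507), AOAH 2 (0.0817), AOAH 3 (0.0795), AOAH 4 (0.0681), vehicle 2 (0.0855) or vehicle 4 (0.0901). Eef1a1, Rplp1, Ptma, Hspa8 and Tpt1 have processed pseudogenes, so their reads may have been divided among copies.

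Transcripts of many genes of the machinery that starts protein synthesis were higher with AOAH. Of 23 cytosolic aminoacyl-tRNA synthetases, which load amino acids onto transfer RNAs, 15 rose and 1 fell, with a median log2 change of 0.13 against 0.01 over all genes tested. Nars (0.20, for asparagine), Gars (0.15, for glycine) and Rars (0.14, for arginine) were the rises of lowest p. Wars1, the tryptophan enzyme, which is also an interferon-induced gene, went the other way and stood at 111, 106, 112 and 108 TPM with AOAH against 129, 129, 129.7 and 130.5 TPM with vehicle (log2 change -0.24 ± 0.03, adjusted p = 2.62e-04). Its 4 vehicle libraries lay within a narrow range above all AOAH libraries. The count of rises was 9 with no filter and 9 without AOAH 3, AOAH 4 or vehicle 4.

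Of 54 genes for translation initiation factors 24 rose and 2 fell, and the median was 0.10. Eif2s1 (0.19) and Eif2s2 (0.17), subunits of the factor that delivers the initiator tRNA, and Eif3d (0.13) rose. Eif4e3, an alternative cap-binding protein, was the clearest exception, at 11.3, 10.7, 11.1 and 10.2 TPM with AOAH against 15.7, 15.9, 16.8 and 18.4 TPM with vehicle (log2 change -0.58 ± 0.06, adjusted p = 2.97e-04). Eif4a2, a helicase that has been tied to translational repression, fell slightly (-0.10, adjusted p = 0.0297), a call that was lost with no filter (0.0646) and without AOAH 2 (0.0734), AOAH 4 (0.0799), vehicle 1 (0.0718) or vehicle 3 (0.0729). The count of rises among initiation factors was 14 with batch as a block, 15 under quantile normalization (with 4 falls), 15 without AOAH 2 or vehicle 2 and 14 without vehicle 4.

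Genes of mitochondrial import rose in part, and a mitochondrial quality kinase fell. Genes of the mitochondrial ribosome had a share of rises near the background and few falls. Of 23 genes of the import machinery, which brings nuclear-encoded proteins into mitochondria, 10 rose and none fell (median 0.09), although 5 rose under quantile normalization. Timm23, the channel of the inner membrane, stood at 443 ± 5.06 TPM with AOAH against 394 ± 8.43 TPM with vehicle, Timm50, its receptor, changed by 0.19, and Timm8a1, a chaperone between the membranes, by 0.20. Of 80 mitochondrial ribosomal proteins 14 rose (17.5% against the 13.1% of all genes) and 1 fell (1.25% against 12.1%), with a median of 0.07. The count of rises was 9 with batch as a block, 9 with no filter and 6 under quantile normalization. It was 9 without AOAH 2, 8 without AOAH 4 and 7 without vehicle 4. Of 17 mitochondrial tRNA synthetases 1 rose. Pink1, the kinase that marks damaged mitochondria for removal, stood at 9.01, 8.78, 9.27 and 9.28 TPM with AOAH against 13.99, 18.4, 15.2 and 19.1 TPM with vehicle (log2 change -0.80 ± 0.09, adjusted p = 4.48e-04), so its vehicle libraries varied but all lay above the AOAH libraries. It was the 1 gene lower of 27 tested in a list of mitochondrial dynamics.

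Protein folding and degradation genes rose in part, with the immune forms of the proteasome as an exception. Of 14 subunits of chaperonin and prefoldin, the chambers and clamps that fold actin and tubulin, 10 rose and none fell (median 0.12), with 5 higher and 1 lower under quantile normalization and 1 lower without vehicle 3. Pfdn2 stood at 219, 223, 221 and 220.0 TPM with AOAH against 184, 181, 197 and 192 TPM with vehicle (log2 change 0.23 ± 0.03, adjusted p = 7.19e-04), and Cct6a changed by 0.14. Of 50 genes with proteasome symbols 19 rose (38% against 13.1% of all genes), with a median of 0.06. The 6 that fell were 12%, near the 12.1% of all genes. The regulatory particle subunit Psmd7 (0.17) and the assembly chaperone Psmg3 (0.19) rose, and Psmc3ip (0.34) shares the symbol pattern but acts in meiotic recombination. Psmb8 (-0.23), Psmb10 (-0.24) and the activator Psme1 (-0.17), which form the interferon-inducible immunoproteasome, fell. Rises among these genes numbered 12 with no filter, 12 under trimmed mean rescaling, 8 under quantile normalization and 12 without vehicle 3. Falls numbered 3 with batch as a block, 3 with no filter and 3 without vehicle 2 or vehicle 4.

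Ubiquitin ligases of T cells did not share the rises: of 33 none rose and 9 fell (27.3% against 12.1% of all genes). Peli1, an E3 ligase that restrains T cell activation, stood at 39.3, 43.8, 45.7 and 40.9 TPM with AOAH against 60.4, 58.5, 62.97 and 61.95 TPM with vehicle (log2 change -0.51 ± 0.05, adjusted p = 1.81e-04). All AOAH libraries were below all vehicle libraries. Rnf19b (-0.25) and the deubiquitinase Cyld (-0.19), which dampens NF-kappa B signals and was listed with the ligases, fell too. With 1 fit over all 11 libraries of the study, or without vehicle 1, 1 gene of this list rose.

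Transcripts of genes for transport through the nuclear envelope were higher in part. Of 28 nuclear transport receptors and Ran cycle genes 15 rose and none fell (median 0.16). Ran, the GTPase that gives nuclear transport its direction, stood at 825, 817, 784 and 831 TPM with AOAH against 688, 688, 708 and 749 TPM with vehicle (log2 change 0.20 ± 0.03, adjusted p = 0.00204). Nutf2, which carries Ran back into the nucleus, changed by 0.16, and the importin Ipo11 by 0.26. Of 25 nuclear pore genes 15 rose and 1 fell (median 0.17), and the count of rises was 9 with no filter and 9 without AOAH 4 or vehicle 4. Nup85, a scaffold subunit, stood at 137, 141, 139.7 and 141 TPM with AOAH against 123, 105, 119 and 112 TPM with vehicle (log2 change 0.28 ± 0.04, adjusted p = 0.00231). Ndc1 (0.29), a membrane anchor of the pore, and Nup62 (0.18), of the central channel, rose too. Nup210, a membrane subunit, was the exception (-0.15, adjusted p = 0.0237). Its call was lost with no filter (0.0537) and on leaving out AOAH 1 (0.0578), AOAH 2 (0.0515), vehicle 1 (0.0502), vehicle 2 (0.0540) or vehicle 3 (0.0573).

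The promoters of Ran and Timm8a1 are shown because both hold CACGTG, the E-box letters bound by MYC and related factors, upstream of the start (RefSeq, GRCm38.p6, chr5:129019991-129020090, plus strand, and chrX:134541821-134541920, minus strand). Crebrf, which fell, is set beside them because its window holds the same letters (chr17:26715478-26715577, plus strand). Capitals mark 1 E-box in each stretch, and the windows of Timm8a1 and Crebrf hold 2.
Ran: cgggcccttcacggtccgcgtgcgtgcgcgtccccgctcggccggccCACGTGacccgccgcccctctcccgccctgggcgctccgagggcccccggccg
Timm8a1: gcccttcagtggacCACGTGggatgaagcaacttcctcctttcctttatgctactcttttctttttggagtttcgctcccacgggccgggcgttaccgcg
Crebrf: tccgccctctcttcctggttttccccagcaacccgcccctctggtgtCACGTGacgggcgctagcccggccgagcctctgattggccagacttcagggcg
These stretches were chosen after their matches were seen, and any part of the letters in the changes was not tested.

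Splicing and RNA unwinding genes rose in part. Of 32 SR and hnRNP proteins, which choose splice sites and package nascent RNA, 18 rose and none fell (median 0.09), but 6 rose and 1 fell under quantile normalization and 11 rose without vehicle 2. Hnrnpab, an abundant RNA-binding protein, stood at 1713, 1747, 1777 and 1764 TPM with AOAH against 1557, 1486, 1592 and 1525 TPM with vehicle (log2 change 0.18 ± 0.02, adjusted p = 7.27e-04). Hnrnpll, which directs the splicing of Ptprc in activated T cells, changed by 0.31. Hnrnpa1 (0.16) has many pseudogenes and is uncertain. Of 48 core spliceosome genes 18 rose and 2 fell (median 0.09), and Sf3b1 (-0.18), the branch site subunit, fell while its complex partner Sf3b4 (0.17) rose. The spliceosome rises numbered 11 with no filter, 10 under quantile normalization, 11 without AOAH 3, vehicle 2 or vehicle 4 and 10 without AOAH 4, and the falls 1 with batch as a block, under quantile normalization and on leaving out AOAH 1, AOAH 3, vehicle 1 or vehicle 2. Of 47 RNA helicases 13 rose and 3 fell, with 8 rises with batch as a block, and 1 fall with no filter and on leaving out AOAH 1, AOAH 3, AOAH 4 or vehicle 3. Ddx21 (0.19), of the nucleolus, rose and Ddx17 (-0.35), a coregulator of transcription and splicing, fell.

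These lists hold mostly abundant genes, and in the most abundant of the 4 parts 29.97% of all genes rose. The lists of chaperonin and prefoldin, cytosolic tRNA synthetases, nuclear pore, splicing regulators and nuclear transport had 53.6% to 71.4% of their genes higher, and those of initiation factors and mitochondrial import 44.4% and 43.5%. The proteasome (38%) and core spliceosome (37.5%) lists were closer to that share, and RNA helicases (27.7%) and the mitochondrial ribosome (17.5%) were below it.

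**Figure D3:**
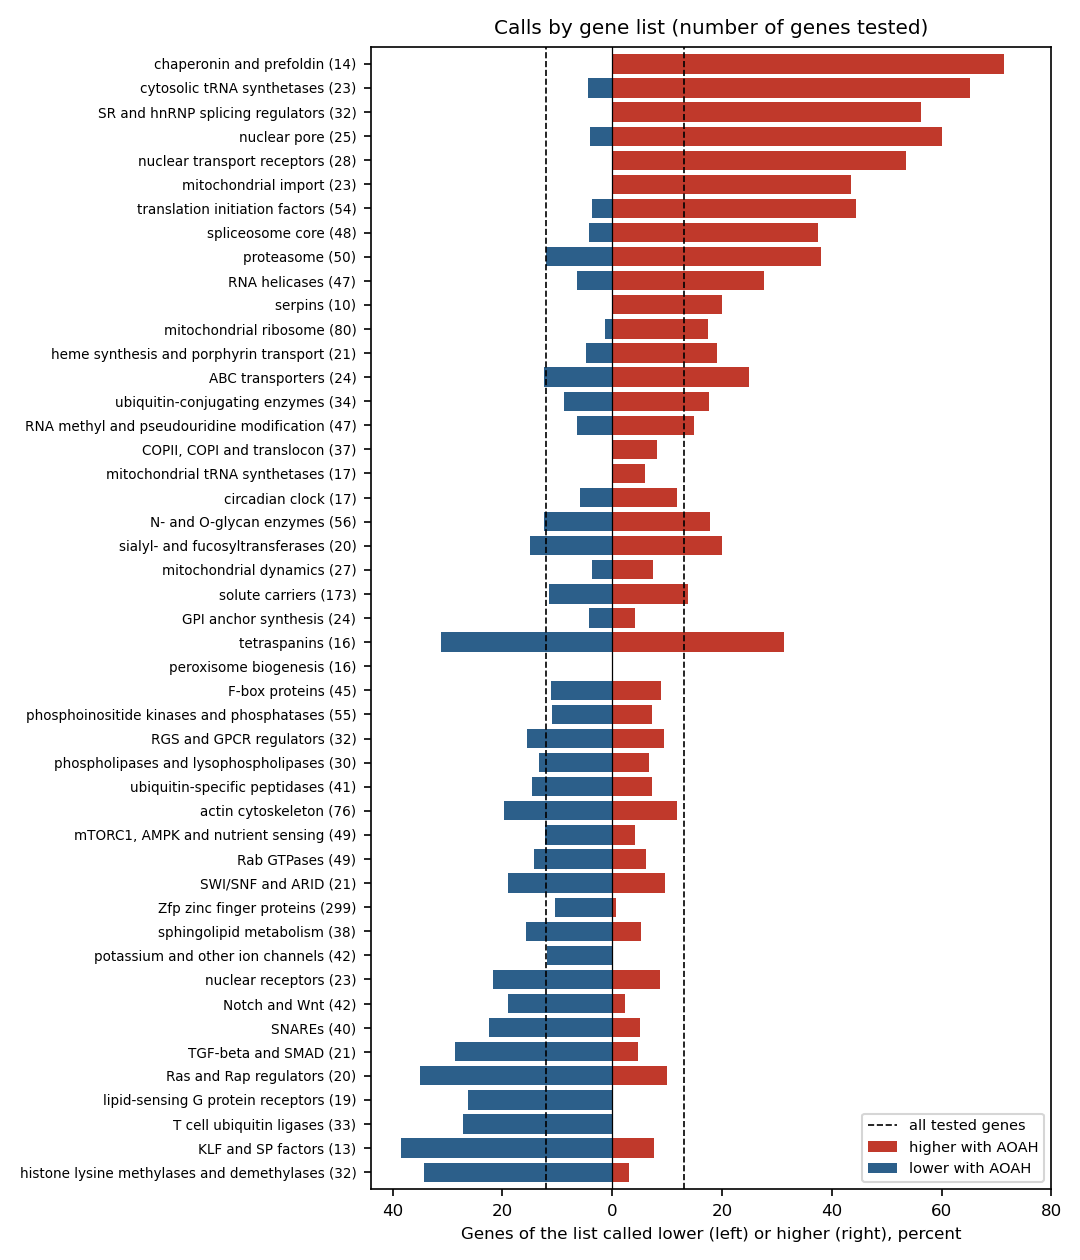
Percent of the tested genes of each of 47 gene lists with at least 10 genes tested that were called lower (left, blue) or higher (right, red) with AOAH, with the number of genes tested in brackets and the shares over all tested genes as dashed lines (12.1% lower, 13.1% higher). Lists of folding, translation and nuclear transport sit at the top right, at up to 71.4%, and histone methylation, KLF and Ras lists at the lower left, at up to 38.5%.

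Enzymes that write and erase histone lysine methylation were lower in part. Of 32 tested 11 fell (34.4% against 12.1%) and 1 rose, with a median of -0.11. Kmt2a, which methylates histone H3 lysine 4 at active genes, stood at 7.25, 7.57, 8.38 and 8.37 TPM with AOAH against 13.4, 13.4, 13.98 and 11.8 TPM with vehicle (log2 change -0.67 ± 0.07, adjusted p = 2.54e-04), so no AOAH library reached the lowest vehicle library. Kmt2d, of the same family, stood at 16.1 ± 2.14 TPM with AOAH against 24.3 ± 1.48 TPM with vehicle (log2 change -0.57 ± 0.09, adjusted p = 0.00232), and Kdm7a, a demethylase, changed by -0.54. The 1 that rose was Kmt5a (0.14), which methylates histone H4 lysine 20 and is tied to cell division. With batch as a block, or without AOAH 1 or vehicle 1, 2 genes of the list rose.

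Transcription factor families moved unevenly. Of 13 KLF and SP factors 5 fell (38.5% against 12.1% of all genes) and 1 rose (7.69% against 13.1%). Falls included Klf3 (-0.76) and Klf13 (-0.40), regulators of lymphocyte genes. They numbered 3 with no filter and when any of AOAH 1, AOAH 4, vehicle 1, vehicle 2 and vehicle 3 was left out. The list holds Klf2, which was passed over by name. The 1 rise was lost with batch as a block, with no filter and without any 1 library other than AOAH 1. Of 299 zinc finger genes with the symbol Zfp, 31 fell (10.4%, under the 12.1% of all genes) and 2 rose (0.669% against 13.1%). Zfp260 (-0.86) and Zfp386 (-0.59) fell. Falls numbered 17 with batch as a block, 17 under quantile normalization (with 8 rises), 20 with no filter, 17 without AOAH 4 and 19 without vehicle 2. Nr4a3, an immediate response gene downstream of the T cell receptor, rose and stood at 101 ± 2.03 TPM with AOAH against 76.9 ± 7.97 TPM with vehicle (log2 change 0.39 ± 0.07, adjusted p = 0.00291). Rarg (-0.58), a retinoic acid receptor, Nr1h2 (-0.25), the oxysterol receptor LXR beta, and Thra (-0.48), a thyroid hormone receptor, fell.

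Clock genes were mostly without a call. Of 17 tested 2 rose (11.8% against 13.1% of all genes) and 1 fell (5.88% against 12.1%). Bhlhe40, a clock repressor that also shapes cytokine production in T cells, stood at 34.3, 41.2, 36.1 and 36.3 TPM with AOAH against 29.4, 30.1, 30.2 and 25.97 TPM with vehicle (log2 change 0.34 ± 0.07, adjusted p = 0.00636), with every AOAH library above every vehicle library. The D-box factor Dbp changed by -0.54 on the log2 scale (adjusted p = 0.0237), and lost the call with no filter (0.0573), under quantile normalization (0.0594) and on leaving out AOAH 3 (0.0607), AOAH 4 (0.0603) or vehicle 2 (0.0620). Csnk1e, a kinase that marks PER proteins for removal, changed by 0.26 (adjusted p = 0.049) and lost the call with no filter (0.111), under quantile normalization (0.0515) and without any library but vehicle 3, at 0.0527 without AOAH 1, 0.0849 without AOAH 2, 0.102 without AOAH 3, 0.119 without AOAH 4, 0.109 without vehicle 1, 0.116 without vehicle 2 and 0.0846 without vehicle 4. Tef, the paralog of Dbp, stood at 4.24, 4.46, 4.67 and 4.42 TPM with AOAH against 6.72, 17.1, 6.18 and 6.41 TPM with vehicle (log2 change -0.77, adjusted p = 0.0751), where vehicle 2 was far above the other vehicle libraries, and passed without vehicle 2 (adjusted p = 0.00398) and with 1 fit over all 11 libraries (0.0396). Nr1d2, the repressor REV-ERB beta, had a change of -0.29 (adjusted p = 0.0559) and passed with a filter of 5 TPM (0.0472), under trimmed mean rescaling (0.0415), with 1 fit over all libraries (0.0295) and without AOAH 4 (0.0409). Of the other genes without a call, Arntl (-0.23), the positive clock factor, passed without AOAH 4 (0.0352) and Per1 (0.16) without vehicle 3 (0.0192).

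Receptors for lysophospholipids, sphingosine phosphate and related lipids were of interest because AOAH is a lipase. Of 38 such receptors 19 reached the level to be tested. Of these 19, 5 fell (26.3% against 12.1% of all genes) and none rose, with a median of -0.07. S1pr4, a sphingosine phosphate receptor of lymphocytes, stood at 19.8, 19.0, 20.5 and 18.7 TPM with AOAH against 30.8, 34.5, 32.5 and 34.9 TPM with vehicle (log2 change -0.74 ± 0.05, adjusted p = 3.78e-05). No value of one group came near the other. Cnr2, the cannabinoid receptor of immune cells, stood at 2.42, 1.93, 2.18 and 2.09 TPM with AOAH against 4.4, 4.31, 4.66 and 5.03 TPM with vehicle (log2 change -0.83 ± 0.08, adjusted p = 1.80e-04). Lpar6, a lysophosphatidic acid receptor, stood at 1.59, 1.74, 1.52 and 1.64 TPM with AOAH against 2.81, 2.59, 2.56 and 2.98 TPM with vehicle (log2 change -0.51 ± 0.08, adjusted p = 0.00241), and both Cnr2 and Lpar6 were scarce. Among receptors of lysophosphatidylserine, P2ry10 stood at 23.96, 24.4, 23.5 and 24.5 TPM with AOAH against 28.6, 29.2, 27.9 and 29.8 TPM with vehicle (log2 change -0.25 ± 0.04, adjusted p = 0.00169) and Gpr174 had a log2 change of 0.16 (95% interval 0.02 to 0.30, adjusted p = 0.0982) and passed without vehicle 3 (0.0180). The difference between these receptors was not tested. P2ry10b (0.26, adjusted p = 0.203) is a close copy of P2ry10, so their split is uncertain.

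The remaining lipid receptors showed smaller differences. Gpr18, a receptor for lipid mediators, fell (-0.24, adjusted p = 0.00829). Prostaglandin E receptor Ptger4 stood at nearly the same level in both groups, at 21.4 ± 1.25 TPM with AOAH against 21.4 ± 1.34 TPM with vehicle, with a 95% interval for the log2 change of -0.13 to 0.13. Ptger2 (0.14, interval -0.02 to 0.30) passed under quantile normalization (0.0394) and Ptger1 (-0.28) without vehicle 3 (0.0483). Gpr132, a receptor for oxidized fatty acids, differed by -0.14 on the log2 scale (adjusted p = 0.0699) and passed under trimmed mean rescaling (0.0417), quantile normalization (0.0482) and without AOAH 3 (0.00763). The acid-sensing receptor Gpr65 (-0.08) did not pass. Lpar5 (-0.00), Lpar2 (0.16), S1pr2 (-0.01), Gpr55 (-0.05), Gpr34 (-0.28) and the oxysterol receptor Gpr183 (0.07) did not pass. A filter of 5 TPM left 3 falls, because it removed the scarce Cnr2 and Lpar6.

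**Figure D4:**
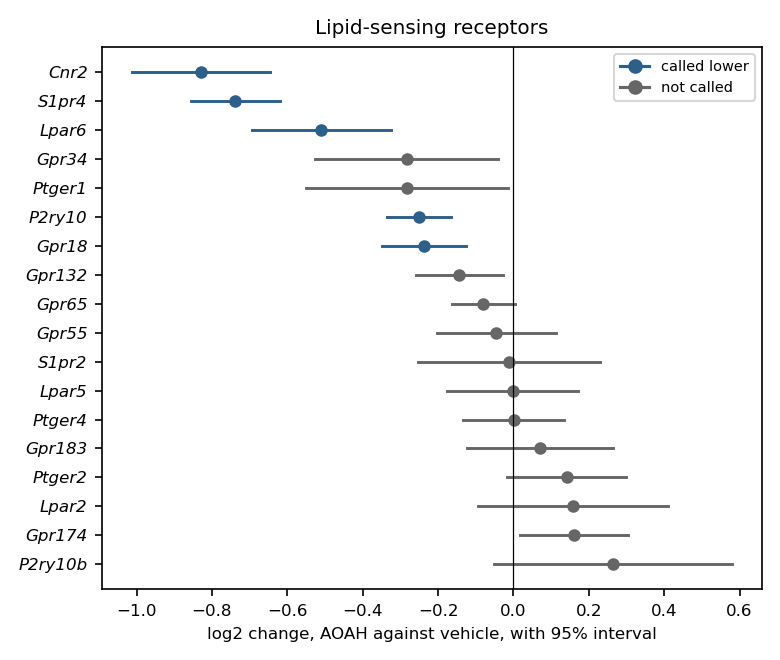
Log2 change (AOAH against vehicle, 4 libraries each) of 18 of the 19 lipid-sensing receptors tested, with 95% intervals from limma as bars, called genes in blue and others in grey. Cnr2, S1pr4 and Lpar6 lie furthest to the left, at -0.83, -0.74 and -0.51, and most others straddle 0.

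Enzymes of lipid turnover had few rises, and a share of falls near the background. Of 30 phospholipase and lysophospholipase genes 2 rose (6.67% against 13.1% of all genes) and 4 fell (13.3% against 12.1%). Pla2g12a, a secreted phospholipase A2, stood at 45.6, 48.8, 47.4 and 48.2 TPM with AOAH against 38.95, 35.8, 35.4 and 37.2 TPM with vehicle (log2 change 0.36 ± 0.04, adjusted p = 4.25e-04), and Pnpla7, a lysophosphatidylcholine hydrolase, stood at 8.62, 8.68, 9.2 and 8.95 TPM with AOAH against 12.6, 13.1, 14.4 and 14.8 TPM with vehicle (log2 change -0.58 ± 0.06, adjusted p = 2.80e-04). The groups were apart for both, in opposite directions. The promoter window of Pnpla7 is shown because it holds the FOXO letters seen at Ypel3, here on the other strand, as TGTTTAC in capitals (RefSeq, GRCm38.p6, chr2:24976053-24976082, plus strand). The stretch also holds the E-box letters CACGTG, left in lower case.
Pnpla7: agaccacgtgagggcTGTTTACaggagacg
Phospholipase C gamma genes moved in opposite directions: Plcg1, the main isoform below the T cell receptor, stood at 37.8 ± 0.476 TPM with AOAH against 45.9 ± 3.25 TPM with vehicle (log2 change -0.27 ± 0.05, adjusted p = 0.00423), and Plcg2, best known from B cells, at 6.15 ± 0.264 TPM with AOAH against 4.7 ± 0.283 TPM with vehicle (log2 change 0.33 ± 0.06, adjusted p = 0.00622). Of 38 sphingolipid genes 6 fell (15.8%) and 2 rose (5.26%). Smpdl3a, a sphingomyelinase-like nucleotidase, stood at 5.23, 4.86, 5.17 and 5.53 TPM with AOAH against 9.99, 11.6, 9.59 and 9.79 TPM with vehicle (log2 change -0.86 ± 0.07, adjusted p = 7.83e-05), and the lysosomal saposin precursor Psap (-0.27) fell. The medians of these lists (-0.02 for each) changed sign under quantile normalization. Abcg1, which exports cholesterol, fell by 0.65, and Abcb1b, a multidrug transporter with a close copy, rose by 0.48 on the log2 scale.

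Regulators of the small GTPases Ras and Rap, which relay receptor signals to growth and adhesion, were lower in part. Of 20 Ras and Rap regulators 7 fell (35% against 12.1% of all genes) and 2 rose (10% against 13.1%). The rises numbered 1 with batch as a block, with no filter, and without any 1 library other than vehicle 1. Rasa3, which turns off Ras and Rap, stood at 18.2, 16.4, 19.98 and 17.1 TPM with AOAH against 30.2, 30.2, 31.1 and 29.6 TPM with vehicle (log2 change -0.73 ± 0.06, adjusted p = 7.16e-05). Rassf5, the Rap effector RAPL, which activates the integrin LFA-1, changed by -0.27, and Rasa2, a Ras inactivator, rose (0.25).

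Among 76 actin cytoskeleton genes 15 fell (19.7% against 12.1% of all genes) and 9 rose (11.8% against 13.1%), with 25 falls under quantile normalization. Evl, which extends actin filaments, stood at 194, 191, 205 and 190.3 TPM with AOAH against 268, 294, 287 and 285 TPM with vehicle (log2 change -0.54 ± 0.04, adjusted p = 2.74e-05), and Coro1a, coronin of lymphocytes, at 799.9 ± 21.2 TPM with AOAH against 945 ± 13.6 TPM with vehicle (log2 change -0.24 ± 0.02, adjusted p = 1.51e-04). Fmnl1 (-0.25), a formin of white blood cells, fell as well. The abundant cytoplasmic actin Actg1 rose, at 1972 ± 24.4 TPM with AOAH against 1810.0 ± 60.8 TPM with vehicle (log2 change 0.12 ± 0.02, adjusted p = 0.00636). Actn4 (0.26) and Tpm4 (0.25), which bundle and coat filaments and are found in many cell types, rose.

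Members of signalling pathways moved in both directions. Of 21 TGF-beta and SMAD genes 6 fell (28.6% against 12.1% of all genes) and 1 rose (4.76% against 13.1%). With batch as a block 3 fell. Tgfbr2, the receptor subunit that binds TGF-beta, stood at 23.1, 22.4, 24.1 and 23.5 TPM with AOAH against 32.2, 33.6, 33.1 and 34.5 TPM with vehicle (log2 change -0.50 ± 0.04, adjusted p = 6.20e-05), and the feedback inhibitor Smad7 stood at 6.86, 7.95, 6.26 and 6.69 TPM with AOAH against 8.54, 9.93, 12.8 and 12.2 TPM with vehicle (log2 change -0.57 ± 0.12, adjusted p = 0.00921). Tgfb1, the ligand, changed by 0.12 on the log2 scale (adjusted p = 0.0495), and that call was lost with no filter (0.105), under quantile normalization (0.101) and without any 1 library other than vehicle 3, at 0.0501 without AOAH 2 to 0.120 without vehicle 2. Of 42 Notch and Wnt genes 8 fell (19.05%) and 1 rose (2.38%). Falls included Lfng (-0.41), which modifies Notch, and the corepressors Tle4 (-0.32) and Tle5 (-0.31). The falls numbered 4 with batch as a block, 5 with no filter, 4 without AOAH 2 and 5 when any of AOAH 1, AOAH 3, vehicle 1, vehicle 2 and vehicle 4 was left out. Rgs1, which blunts chemokine receptor signals, rose and stood at 164, 167, 168 and 176 TPM with AOAH against 127, 104, 125 and 112 TPM with vehicle (log2 change 0.53 ± 0.06, adjusted p = 4.27e-04), as did Rgs16 (0.27) and Rgs2 (0.42), while Rgs14 (-0.32) and the G protein subunit Gnai2 (-0.16) fell. In this list 3 of 32 rose (9.38%) and 5 fell (15.6%), shares near those of all genes, and 3 fell with batch as a block.

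Nutrient sensing and phosphoinositide genes had few rises, and a share of falls near the background. Of 49 genes of mTORC1, AMPK and nutrient sensing 6 fell (12.2% against 12.1% of all genes) and 2 rose (4.08% against 13.1%). Neither rise held with batch as a block or with no filter. The same was so on leaving out any 1 of AOAH 1, AOAH 2, AOAH 3, AOAH 4, vehicle 2 and vehicle 3. The rises numbered 1 without vehicle 1 or vehicle 4, with trimmed mean rescaling and with 1 fit over all libraries. Sesn1, a sestrin that restrains mTORC1 when amino acids are low, stood at 14.9, 13.8, 14.6 and 13.5 TPM with AOAH against 20.96, 21.8, 20.4 and 23.1 TPM with vehicle (log2 change -0.57 ± 0.05, adjusted p = 1.51e-04). Rictor (-0.44), the scaffold of mTORC2, and Ulk1 (-0.25), the kinase that starts autophagy, fell. Of 55 phosphoinositide kinases and phosphatases 6 fell (10.9%) and 4 rose (7.27%). The rises numbered 2 with batch as a block and 2 with a filter of 5 TPM. Pik3cd (-0.31), the catalytic subunit p110 delta used by lymphocytes, fell, and Pik3ap1 (0.38), the adaptor BCAP, rose.

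Surface and membrane families split by member. Of 16 tetraspanins, which organise surface receptors, 5 rose (31.25% against 13.1% of all genes) and 5 fell (31.25% against 12.1%). Next to Cd81, Cd82 (0.17) and Tspan3 (0.23) rose, while Cd37 (-0.27), Cd53 (-0.12) and Tspan14 (-0.30) fell. Rises numbered 3 with batch as a block, with no filter and when any of AOAH 1, AOAH 2, vehicle 1, vehicle 2 and vehicle 4 was left out. Ms4a4b, a T cell membrane protein, stood at 293, 279, 289.5 and 271 TPM with AOAH against 452, 439, 412 and 440.3 TPM with vehicle (log2 change -0.62 ± 0.03, adjusted p = 1.80e-05), and its family member Ms4a6b changed by -0.62. These genes have close copies and their reads may be divided.

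Sialic acid genes moved in opposite directions. Cmah, which makes N-glycolylneuraminic acid, stood at 11.7, 10.3, 12.5 and 10.5 TPM with AOAH against 22.8, 22.4, 23.02 and 22.2 TPM with vehicle (log2 change -0.95 ± 0.06, adjusted p = 2.74e-05). St6gal1, which adds alpha2,6-linked sialic acid, stood at 7.78, 7.86, 7.97 and 6.97 TPM with AOAH against 14.6, 12.3, 12.5 and 12.8 TPM with vehicle (log2 change -0.70 ± 0.07, adjusted p = 1.77e-04). Nans (0.21), the sialic acid synthase, St3gal5 and St3gal2 (0.38) rose. The GM3 synthase St3gal5 stood at 4.48, 5.68, 5.24 and 5.45 TPM with AOAH against 3.92, 2.42, 3.54 and 3.05 TPM with vehicle, so all AOAH values were higher. In this list 4 of 20 tested rose (20% against 13.1% of all genes) and 3 fell (15% against 12.1%), with 2 rises under a filter of 5 TPM.

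Among 173 solute carriers 24 rose and 20 fell, shares close to those of all genes (13.9% and 11.6%), and 13 fell with a filter of 5 TPM. Slc12a7, a potassium and chloride cotransporter that lets swollen cells shrink, stood at 19.7, 15.02, 18.3 and 16.3 TPM with AOAH against 36.5, 37.4, 34.6 and 35.1 TPM with vehicle (log2 change -1.02 ± 0.08, adjusted p = 5.22e-05). The largest called fall of the list was in Slc28a2b (-1.74), of a nucleoside transporter family, and the largest called rises in Slc16a3 (1.24), the lactate exporter MCT4, and Slc16a10 (0.84), an aromatic amino acid transporter. Slc25a5, an ATP and ADP carrier of mitochondria with pseudogenes, rose by 0.15. Alas1, the first enzyme of heme synthesis, stood at 56.96, 51.3, 51.8 and 49.6 TPM with AOAH against 39.4, 39.9, 39.6 and 39.5 TPM with vehicle (log2 change 0.39 ± 0.04, adjusted p = 3.53e-04), with vehicle libraries that were almost equal, and Alad (0.17), the next enzyme, rose too. The later enzyme Urod had a log2 change of -0.19 (adjusted p = 0.0402), which was lost with batch as a block (0.0998), with no filter (0.0888), with 1 fit over all libraries (0.105) and without AOAH 2 (0.0803), AOAH 3 (0.0955), AOAH 4 (0.102), vehicle 1 (0.0506), vehicle 3 (0.0939) or vehicle 4 (0.0958). Of 16 peroxisome biogenesis genes limma called none.

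The other lists are given with the percent called and then the range of the count over the 17 alternatives. Over all genes 13.1% rose and 12.1% fell. Of 40 SNAREs, which fuse vesicles with membranes, 2 rose (5%, 0 to 2) and 9 fell (22.5%, 5 to 9, with 5 without AOAH 2). The Golgi SNARE Stx5a (-0.41) was among the falls. Of 49 Rab GTPases 3 rose (6.12%, 1 to 6), among them Rab34 (0.48), and 7 fell (14.3%, 4 to 9), among them Rab19 (-0.64). Of 56 enzymes of N- and O-glycans 10 rose (17.9%, 3 to 11, with 4 when batch was a block) and 7 fell (12.5%, 4 to 8). The rises numbered 6 without AOAH 2, 5 without AOAH 3, 4 without AOAH 4, 6 without vehicle 1, 3 without vehicle 2 and 5 without vehicle 4. Alg8 (0.26), which extends the glycan precursor, rose and Man2c1 (-0.33), a cytosolic mannosidase, fell. Of 42 potassium and other ion channel genes none rose (0 to 1) and 5 fell (11.9%, 3 to 7). Kcna2, a voltage-gated potassium channel, stood at 0.79, 0.54, 0.78 and 0.44 TPM with AOAH against 2.19, 2.13, 2.23 and 2.13 TPM with vehicle (log2 change -0.96 ± 0.11, adjusted p = 3.66e-04). Its group means were 0.637 ± 0.175 TPM with AOAH against 2.17 ± 0.049 TPM with vehicle, which is scarce in both groups.

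Ubiquitin enzymes outside the ligase list were divided. Of 45 F-box proteins 4 rose (8.89%, 1 to 7), among them Fbxo5 (0.45), which restrains the anaphase-promoting complex, and 5 fell (11.1%, 3 to 6), among them Fbxl12 (-0.66). Of 34 ubiquitin-conjugating enzymes 6 rose (17.65%, 5 to 8) and 3 fell (8.82%, 1 to 3). Of 41 ubiquitin-specific peptidases 3 rose (7.32%, 2 to 5) and 6 fell (14.6%, 3 to 7). Of 47 RNA methylation and pseudouridine genes 7 rose (14.9%, 4 to 8), among them Nsun2 (0.15), a cytosine methyltransferase, and 3 fell (6.38%, 2 to 4). Of 21 SWI/SNF and ARID genes 4 fell (19.05%, 3 to 5), among them the remodelling ATPase Smarca2 (-0.53), and 2 rose (9.52%, 0 to 3). Of 24 ABC transporters 6 rose (25%, 5 to 6) and 3 fell (12.5%, 2 to 4). Of 37 genes of COPII, COPI and the translocon 3 rose (8.11%, 1 to 4), and of 10 serpins 2 rose (20%, 0 to 2). Of 24 GPI anchor genes 1 rose (4.17%, 0 to 3) and 1 fell (4.17%, 0 to 2).

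Letters of known binding sites were counted in RefSeq promoter windows, from 250 bases before to 50 after the start, on both strands. Of the 11561 genes 8525 had a window and 6826 had exactly 1, and only these were counted. The FOXO letters GTAAACA were in 4.17% of 815 falls, 2.38% of 4993 genes not called and 1.57% of 1018 rises (2.48% of all). AP1 letters (TGANTCA) followed the same order, with 6.63%, 3.97% and 3.14%. E-box letters (CACGTG) were in 8.10% of falls, 10.9% of genes not called and 12.7% of rises, ETS letters (CCGGAAGT) in 6.26%, 10.4% and 11.9%, and E2F letters (TTTGGCGC), of cell cycle promoters, in 0.368%, 1.02% and 2.55%. NFY letters (CCAAT) were in 326 of 815 falls, 39.9% of genes not called and 45.4% of rises, and NRF1 letters (GCGCATGC) in 3.19%, 6.91% and 5.89%.

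The windows of falls were also poorer in G and C, at 59.3% against 61.7% in rises, and the part of that in these shares was not tested. KLF letters (CCACACCC) were in 4.17% of falls, 3.79% of genes not called and 3.44% of rises, SP letters (GGGGCGGGG) in 20.5%, 23.1% and 22.8%, CRE letters (TGACGTCA) in 2.21%, 3.81% and 4.22%, and D-box letters (TTANGTAA) in 1.1%, 1.48% and 1.18%. No motif holds the letters of another in full. E-box letters were in 10.8% of all windows and varied among lists with many rises. They were in 5 of 17 windows of nuclear transport genes, 4 of 15 of cytosolic tRNA synthetases, 8 of 36 of initiation factors and 4 of 18 of mitochondrial import, but in 3.33% of windows of the core spliceosome, 6.06% of the mitochondrial ribosome, 9.38% of RNA helicases, 10.5% of the proteasome and 11.1% of the nuclear pore. Lists without many rises could also be high, as potassium and other ion channels (21.7%) and the actin cytoskeleton (18.9%) were. These are matches of letters, not measured sites.

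**Figure D5:**
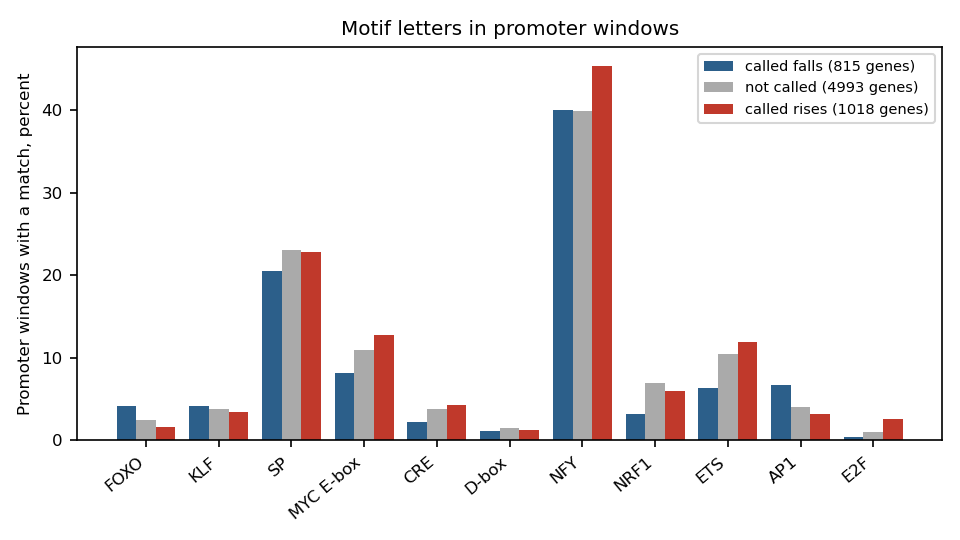
Percent of promoter windows that hold each motif, for called falls (blue, 815 genes), genes not called (grey, 4993 genes) and called rises (red, 1018 genes). FOXO, AP1 and KLF letters are most frequent in falls and E-box, ETS, NFY, CRE and E2F letters in rises, and NFY and SP letters are the most frequent in all 3 sets.

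The authors' deposited table gave the same directions. Of the 243 genes named here by rule that were called, 238 had an adjusted p in the authors' deposited table, and in that table all 238 changed in the same direction and 198 had an adjusted p under 0.05. It was made from the same libraries and is no independent check.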

How the data were processed

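RNA of 8 libraries was compared, 4 with AOAH and 4 with vehicle. The authors' deposited table holds log2 values of TPM plus 1 from RSEM, per the submitters' processing notes. Back-transformed TPM added up to 998406 to 998655 in each library, with 99.9% of values on steps of 0.01 within 1e-04. The notes name build mm39, while the aligner, the annotation and any use of the molecular identifiers are not given by the sources used here. The depth is unknown. The authors' deposited DESeq2 table holds a base mean (a signal of counts divided by size factors), a log2 fold change and its standard error, a Wald score, and a p-value with its adjusted value. The phosphatidylcholine comparison and the receptor repertoire tables were not used here.

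Genes that averaged 1 TPM or more were tested two-sided with limma 3.58.1 (R 4.3.3) on log2(TPM + 1), with trend and robust variance. A call is an adjusted p (Benjamini-Hochberg) under 0.05. The fit was also run on simulated data with independent noise for each gene and fewer changed genes than were called here. That run does not check the calls in these data. The members, 49 function lists and 7 cell identity lists were chosen with earlier results of these data known. Named were the 12 largest rises and falls (called, at least 5 TPM in the higher group, groups apart, same sign in every same-batch pair), the 5 largest TPM changes each way, up to 3 called members per list and direction of at least 2 TPM, and all lipid receptors and clock genes tested, in all 271 genes. Sets passed over in the first 2 steps were cell cycle, histones, interferon, MHC, glycolysis, receptor segments, ribosomal proteins with Rpl or Rps symbols, genes with no symbol of their own, and a set of genes whose change in these data was already known. One list and a few named genes are not reported here. Not every named gene is printed, and genes whose calls held under the alternatives were preferred. Cd8b1, Cd3d, Cd5, Eomes and Gzma come from the identity lists. The tRNA synthetase list was matched to older symbols after the table was seen, and the 5 promoter stretches were chosen after their matches were seen.

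The labels give batch numbers 1 to 4 in both groups, which pairs the libraries. Correlations of deviations from group means averaged -0.0585 in the 4 same-batch pairs (-0.0782 to -0.0428) and 0.0196 in the 12 other pairs. The 17 alternatives were pseudocounts of 0.1 and 5, no filter, a filter of 5 TPM, trimmed mean rescaling, quantile normalization, 1 fit over all 11 libraries, array weights, batch as a block, and each library left out in turn. Promoter windows are RefSeq's (GRCm38.p6).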

Additional observations from a re-analysis of the deposited data

Results flagged for a closer look

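In each group of 4 libraries of the 271 named genes, the highest or lowest value was set against the other 3 (Dixon's ratio above its 95% critical value for 4 samples). Of 542 groups 19 (3.51%) held a value that far apart, and chance gives about 1 in 20. All values here are in TPM, with the other 3 libraries of the same group behind each.

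Vehicle 2 was high for Tef, at 17.1 against 6.18 to 6.72, and Tef passed the test without it. It was also high for Plcg1 (50.8 against 44.1 to 44.5), Rarg (8.89 against 6.19 to 6.62) and Tpt1 (3618 against 3496 to 3515), and low for Ddx19a (87.4 against 93.5 to 94.0). Vehicle 1 was high for Nr1d2 (8.50 against 6.5 to 6.82), and vehicle 4 for Zfp260 (13.4 against 11.2 to 11.4).

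AOAH 3 was high for Csnk1d (84.6 against 77.2 to 77.7), Gpr132 (38.5 against 33.1 to 33.7), Klf16 (36.2 against 33.7 to 34.0) and Tcp11l2 (5.74 against 4.47 to 4.57), and low for Rab34 (7.28 against 7.74 to 7.82). AOAH 4 was high for Rars2 (52.4 against 44.7 to 45.9) and Sec23b (121 against 108.6 to 109.9), and low for Rapgef4 (1.16 against 1.75 to 1.82) and Rarg (4.01 against 4.36 to 4.41). AOAH 2 was high for Timm50 (143 against 134 to 136) and low for Arid4a (14.28 against 15.25 to 15.45), and AOAH 1 was low for Rab5if (179 against 190.0 to 191). Csnk1d and Gpr132 were not called, Klf16, Rars2, Sec23b and Rab5if lost their calls under at least 1 alternative, and the others named here for AOAH kept theirs.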

How the results depend on the processing

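With batch as a replicate block the test called 2300 genes, 1121 higher and 1179 lower, against 2913, 1514 and 1399 without it. Total counts of calls stayed within 1.5 times of these under all 17 alternatives: leaving out 1 library gave 2197 to 2645 calls (1064 to 1423 higher, 1133 to 1294 lower), the lowest without vehicle 2, and the other settings gave 2249 (no filter) to 3217 (1 fit over all libraries). Of the 243 named genes that were called, 191 kept the call under every alternative that tested them, 52 lost it under at least 1 and 28 lost it with batch as a block. Of 28 named genes that were not called, 9 passed under at least 1 alternative, and no call reversed. Quantile normalization lowered the counts of rises in several lists of abundant genes (6 against 18 for SR and hnRNP proteins), and the cause was not tested. The median log2 change over all genes lay between -0.0036 (no filter) and 0.0246 (quantile normalization). With TPM alone the depth is unknown, so no limit from counting error can be given for scarce genes such as Cnr2 or Kcna2.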

Other observations

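A few rows passed over by the naming rule, most of them without a gene name of their own, moved further than the named genes. They were chosen here after their values were seen. Gm30603 stood at 4.83, 3.39, 3.80 and 3.53 TPM with AOAH and at 19.1, 19.7, 24.1 and 21.8 TPM with vehicle (log2 change -2.18 ± 0.10, SE, limma adjusted p = 1.00e-05), so the groups were far apart with little spread. Gm43778 was listed at 0 in all 4 AOAH libraries and in vehicle 2, and at 29.4, 28.5 and 24.8 TPM in the other vehicle libraries (limma adjusted p = 0.0482). The small nucleolar RNA Snord17 was listed at 0 in all 4 vehicle libraries and in AOAH 2, and at 7.54, 6.28 and 13.8 TPM in the other AOAH libraries (limma adjusted p = 0.0475). Rows that are at 0 in single libraries of both kinds can be failed estimates, and no fold is given for them.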
